A study of Mus musculus with 15 samples.

Results

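Matrix metalloproteases, ADAM proteases and their inhibitors were followed as a family of 84 genes among the 24421 listed in a count table of mouse kidney cells. The 84 are every listed symbol of the Mmp, Adam, Adamts, Adamtsl 1 to 5 and Timp series: 23 Mmp, 33 Adam, 19 Adamts, 5 Adamtsl and 4 Timp genes, chosen by name and not by level. RNA was sequenced from primary proximal tubule cells, the epithelium that reabsorbs most of the kidney's filtrate, after a single passage in culture. The C57BL/6 mice were male or female and either wild type (WT) or Diet1 knockout (KO), Diet1 being the older name of a gene whose loss is known to alter bile acid metabolism. Male KO had n = 3 libraries, and the male WT, female KO and female WT groups had n = 4 each. Each group is 1 pool of cells from 3 to 4 mice that was divided into technical replicates, so every SD, standard error and p-value below measures the spread between libraries of a pool and not between mice or cultures. The age of the mice and the nature of the knockout allele are not given in the sources used here, and Malrd1, the current symbol of Diet1, was not analysed here, so the KO label was not checked against that gene.

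Matrix metalloproteases (MMPs) are zinc-dependent enzymes that are secreted or held at the cell surface and cut collagens, laminins, fibronectin and other matrix proteins. They are made as inactive precursors, and the tissue inhibitors of metalloproteases (TIMPs) block them by binding the active site. ADAMs are membrane-anchored relatives best known for shedding growth factors, cytokines and adhesion proteins from the cell surface, while ADAMTS enzymes are secreted and cut proteoglycans and procollagens. ADAMTS-like (Adamtsl) proteins share the ancillary domains but have no protease domain. In the kidney these families are known from matrix turnover in tubule injury and fibrosis and from shedding of ligands of the EGF receptor.

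Libraries held 17648416 to 30896637 counts, and 13912 genes had enough counts to be tested. Levels are CPM, read counts scaled to a common library total after TMM (a correction for library composition), with SD over libraries. On log2 CPM, the correlation was at least 0.996 within a group and at most 0.995 between groups. Of the markers of proximal tubule fixed for the label, the epithelial genes Krt8, Krt18, Cdh16 and Pax8 were at 116 CPM or more in every pool, but the transporter genes Slc34a1, Slc22a6 and Slc22a8, which define the differentiated segment, were at 0.0380 CPM or less, so the cells carried the tubule label without those transporters. All 17 markers of that list summed to 3857 to 4158 CPM across male WT and 4904 to 4996 across male KO, and to 3567 to 3678 across female WT and 4287 to 4470.3 across female KO, higher in KO in each sex with no overlap. Most of the sum was the keratins Krt8 and Krt18, which rose in both KO pools, while the apical proteins' genes Lrp2 (megalin) and Ggt1 fell in both. Of 12 tested markers of the list, 3 rose and 2 fell in male KO (10.1% and 10.1% of all tested genes). In female KO 2 rose and 5 fell (20.7% and 18.6%). The part of these shifts in the results below was not tested. Markers of other cell types were present and differed between pools. The summed level of 10 endothelial markers was 79.7 to 85.3 CPM across the male WT libraries, against 37.3 to 41.6 for male KO, 32.97 to 39.9 for female WT and 38.04 to 49.02 for female KO. For 10 fibroblast markers, mostly Col1a1 and Col1a2, it was 3522 to 3760.4, 1845 to 2039, 3623 to 3906 and 2608 to 2839.5 CPM in the same order. The 12 leukocyte markers summed to 21.7 to 26.1, 32.1 to 34.9, 35.1 to 41.7 and 45.6 to 56.8 CPM, with S100a9 at 0 in every pool. Podocyte markers (6 genes) summed to 448 to 475, 383 to 418, 297 to 311 and 309 to 347 CPM, smooth muscle and pericyte markers (9 genes) to 3496 to 3867, 2966 to 3039.8, 3855 to 3898 and 3788 to 4372 CPM, and distal nephron and collecting duct markers (9 genes) to 10.4 to 13.05, 6.705 to 8.51, 18.6 to 20.5 and 4.09 to 7.39 CPM. Of 8 tested fibroblast markers, 6 fell and 0 rose in male KO (10.1% and 10.1% of all tested genes). In female KO 4 fell and 2 rose (18.6% and 20.7%).

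**Figure D1:**
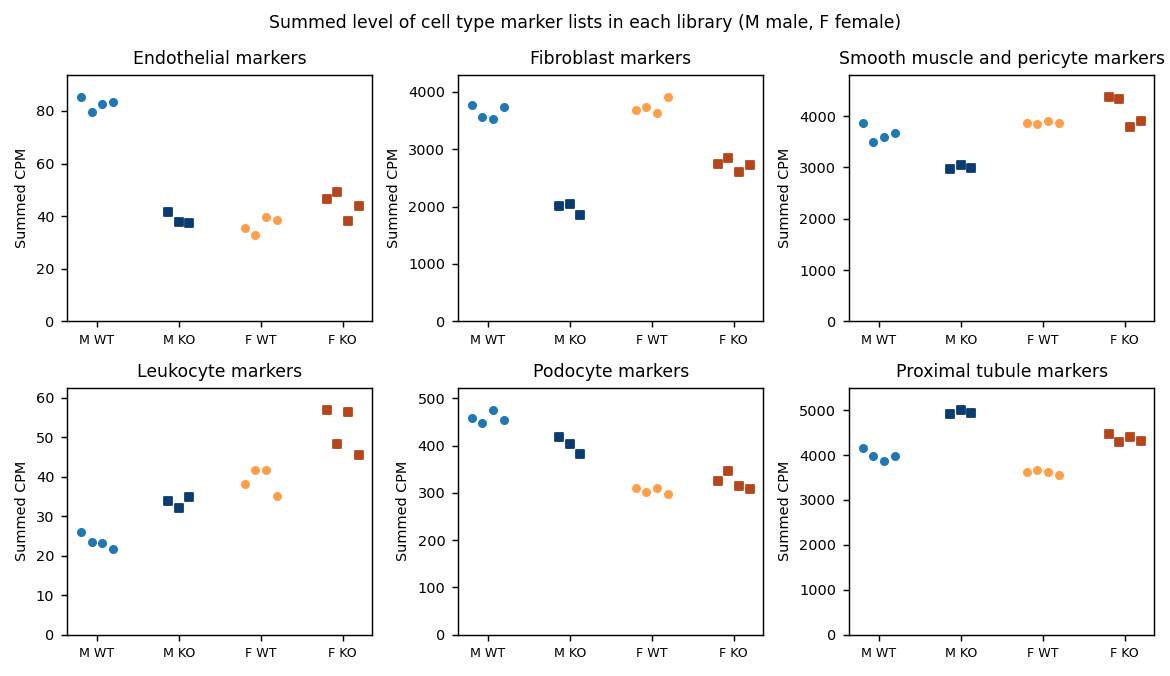
Summed CPM (vertical axis, from 0) of 6 lists of cell type markers in each library (points), by pool on the horizontal axis. Endothelial markers are highest in the 4 male WT libraries. The fibroblast sum, mostly Col1a1 and Col1a2, is lower in both KO pools than in the WT pool of the same sex.

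Which of these genes the cells transcribed was asked first. Of the 84, 48 had enough counts to be tested and 36 did not. The untested 36 had at most 97 counts summed over the 15 libraries, and 12 had none: the collagenase genes Mmp1a and Mmp1b and 10 Adam genes. Of the 21 Adam genes known mainly from the germ line, 19 were untested, the exceptions being Adam1a and Adam4. For Adam1a, 63.7% of the exon bases are shared on the same strand with Mapkapk5 and Gm42878. Adam4, with 135 counts in all libraries together, lies within Cox16 on the same strand, which had 1755. The part of these neighbours in the counts of Adam1a and Adam4 was not tested. A count of 0 in a library leaves a level of up to 0.0971 to 0.170 CPM possible (3 counts, depending on depth, counting error only). Of the Adamts series 15 of 19 were tested, of Mmp 15 of 23, of Adam 12 of 33, of Adamtsl 3 of 5 and of Timp 3 of 4.

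Levels of different genes were compared per kilobase of exon, using the union of exons in GENCODE M21, since a longer transcript gives more reads. Timp1, a secreted inhibitor of most MMPs, stood first at 334 CPM per kb as the mean of the 4 pools. Adamts1, a protease of versican and other proteoglycans, followed at 97.9, Timp2, the inhibitor that also takes part in activation of MMP2, at 86.3, Mmp14, the membrane-anchored collagenase that carries out this activation, at 75.7, and Mmp2, or gelatinase A, at 73.5 CPM per kb. In male WT, Mmp2 at 82.7 ± 2.31 CPM per kb (n = 4) lay above Mmp14 at 75.8 ± 2.98 (n = 4) and Timp2 at 74.6 ± 1.77 (n = 4), and the last pair differed by less than the SD of Mmp14. In female KO the order was Timp2 at 103 ± 2.04, then Mmp2 at 77.6 ± 4.39 and Mmp14 at 77.2 ± 2.16 CPM per kb (n = 4 each), where the last pair overlapped within their SDs. Adam12 (meltrin alpha) at 50.9, Timp3, the matrix-bound inhibitor that also blocks ADAM17, at 49.3, the sheddases Adam9 at 40.2 and Adam10 at 39.3, and the aggrecanase Adamts5 at 23.6 CPM per kb completed the 10 highest. At the other end of the tested genes stood Adam23 at 0.0472 CPM per kb.

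**Figure D2:**
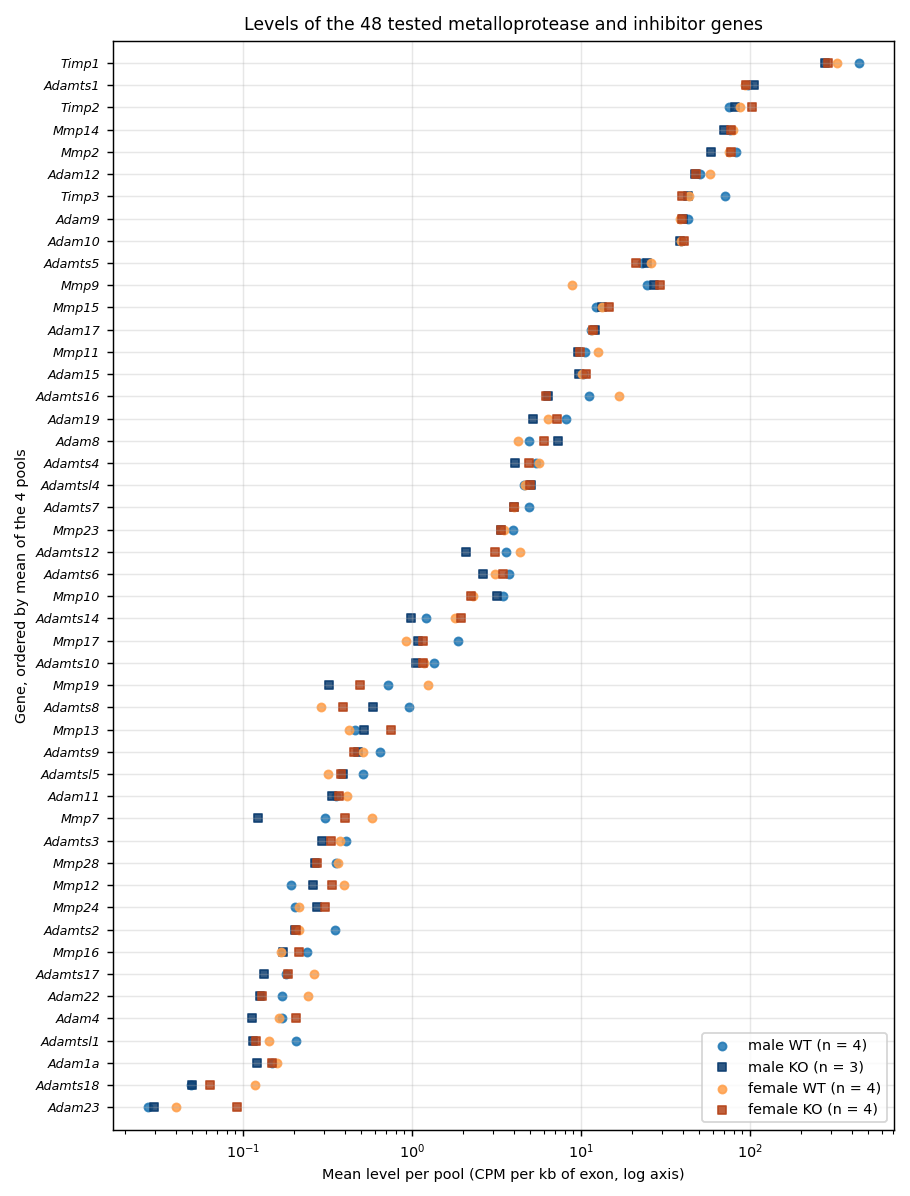
Mean level of the 48 tested genes in each pool (points, CPM per kb of exon on a log axis), ordered on the vertical axis by the mean of the 4 pools. Timp1 is highest at 334 CPM per kb, and Mmp9 shows 1 pool apart, female WT at 8.81 ± 0.354 CPM per kb.

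Summed per kilobase within a library, the 4 Timp genes came to 564 to 619 CPM per kb across male WT, against 381 to 423 for male KO, 445 to 467 for female WT and 414 to 461 for female KO. The 23 Mmp genes came to 213 to 225, 182 to 193, 195 to 205 and 209 to 228 CPM per kb in the same order. Male WT therefore held the highest summed inhibitor level, with no overlap with the other pools, while its summed Mmp level overlapped with that of female KO. The Adam sum stayed between 158 and 174 CPM per kb in all 15 libraries. For the Adamts genes the female KO pool had the lowest sum (132 to 146 CPM per kb), below every library of the other pools. Female WT had the range 155 to 162 CPM per kb. The male ranges overlapped (WT 150 to 157, KO 152 to 155 CPM per kb).

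KO was compared with WT in males and in females by edgeR's quasi-likelihood test across all 13912 genes, with a call at a Benjamini-Hochberg adjusted p below 0.05. In males 19 of the 48 tested members were lower in KO and 3 were higher, against 10.1% of all tested genes lower and 10.1% higher. In females 12 were lower and 8 higher, against 18.6% lower and 20.7% higher among all genes. The median log2 fold change of the tested members was -0.30 in males and -0.03 in females, beside 0.00 for all genes in each. Every one of the 10 members that passed with at least a 1.5-fold difference in males was lower in KO, where 3.21% of all genes passed, 2.58% as lower and 0.633% as higher. In females 7 members passed with at least 1.5-fold (6.73% of all genes), 3 higher and 4 lower (3.45% and 3.28%). Whether fewer cells of a type or less RNA per cell lay behind a lower level cannot be told apart in such bulk samples.

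Of the 48 tested members, 8 were lower in both KO pools (5.01% of all tested genes were), namely Mmp11, Mmp19, Timp1, Timp3, Adam12, Adamts4, Adamts12 and Adamts16. Higher in both were 2, Timp2 and Adam8 (7.38% of all genes). Mmp17 and Adam19 fell in male KO and rose in female KO (1.22% of all genes). A further 10 members were called in males and not in females (6.25% of all genes), 8 in females and not in males (25.4%), and 18 in neither sex (54.4%). The difference between the sexes' KO effects was tested as an interaction, which called 14 of the 48, 11 with a more positive effect in females (9.76% of all genes) and 3 with a more negative one (5.89%).

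**Figure D3:**
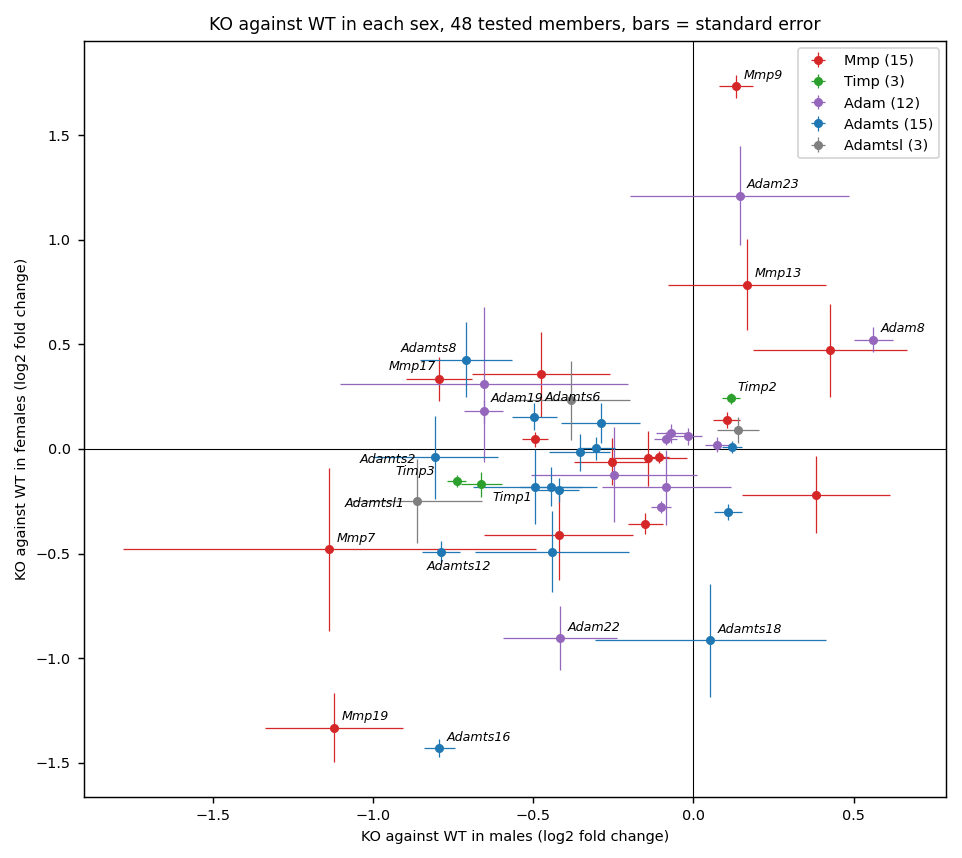
Log2 fold change of KO against WT in males (horizontal axis) and females (vertical axis) for the 48 tested members (points, coloured by family), with standard errors as bars. Adamts16 and Mmp19 lie low in both sexes, Mmp9 lies high in females at 1.73 and near 0 in males at 0.13, and Timp3 and Timp1 lie farther below 0 in males than in females.

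With the pool as the unit, no member was called. A model with sex and genotype on the counts summed per pool has 1 residual degree of freedom. It called 0 of 48 members (edgeR, 13 at an unadjusted p below 0.05, smallest adjusted p = 0.119) and 1 of 13912 genes (0.00719%, with 2510 at an unadjusted p below 0.05). The calls below therefore compare these 4 pools.

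Among the inhibitors, Timp1 and Timp3 were higher in the male WT pool than in any other, and Timp2 went the other way. Timp3 (chromosome 10, 86300372 to 86349506 on GRCm38, inside the Syn3 gene on the opposite strand) was at 556, 592, 597 and 579.6 CPM in male WT, 345, 355 and 344 in male KO, 359.9, 355, 354 and 354 in female WT, and 301, 323, 328 and 328 in female KO. The 4 male WT libraries stood apart from the other 11, and the female KO libraries were the lowest, with no overlap. Timp3 fell 1.67-fold in male KO (log2 fold change -0.74 ± 0.03, edgeR adjusted p = 4.94e-19) and 1.11-fold in female KO (log2 fold change -0.15 ± 0.028, edgeR adjusted p = 4.28e-05), and these effects differed (interaction 0.59 ± 0.041, edgeR adjusted p = 2.13e-12). Exons of Syn3 overlap 21.3% of the exon bases of Timp3, and since the strand setting of the counting is not stated, reads there could not be assigned to one gene. Syn3 had 1448 counts in all libraries together, against 130824 for Timp3.

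Timp1 (chromosome X, 20870166 to 20874735, within Syn1 on the opposite strand) was at 421, 380.1, 371 and 392 CPM in male WT, 248.5, 266 and 228 in male KO, 286, 299.9, 297 and 276 in female WT, and 284, 262, 243 and 244 in female KO. Male WT was again above all other libraries, while the female KO range overlapped with those of male KO and female WT, which did not overlap with each other. Timp1 fell 1.58-fold in male KO (log2 fold change -0.66 ± 0.064, edgeR adjusted p = 4.31e-06). In females the difference was smaller (log2 fold change -0.17 ± 0.059, edgeR adjusted p = 0.0362). This call was lost without female WT replicate 1, 2 or 3 (adjusted p = 0.0563, 0.0831 and 0.0797) or female KO replicate 2, 3 or 4 (adjusted p = 0.0512, 0.0818 and 0.084), as well as with no filter on low counts (edgeR adjusted p = 0.0563). The effects in the 2 sexes differed by 0.49 ± 0.087 (edgeR adjusted p = 0.00123). Summed endothelial markers and summed podocyte markers were also highest in male WT, each with no overlap with the other pools. Summed fibroblast markers were higher in WT than in KO in each sex, but female WT (3623 to 3906 CPM) overlapped with male WT (3522 to 3760.4 CPM). The part of these cell types in the Timp1 and Timp3 differences was not tested.

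Timp2 was at 297, 285, 284 and 296 CPM in male WT, 313, 314 and 318 in male KO, 337, 332, 335 and 350.3 in female WT, and 407, 406, 390.0 and 400.0 in female KO. Female KO was above and male WT below every other library. Timp2 rose in male KO (log2 fold change 0.12 ± 0.028, edgeR adjusted p = 0.00259) and in female KO (log2 fold change 0.24 ± 0.026, edgeR adjusted p = 2.05e-09). The interaction (0.13 ± 0.038, edgeR adjusted p = 0.0186) was lost with library size as the only scaling (adjusted p = 0.115) and without male WT replicate 4, male KO replicate 1, male KO replicate 2 or female KO replicate 2 (adjusted p = 0.0582, 0.0736, 0.0531 and 0.0532). Timp4, the inhibitor known from heart and brain, had 2 counts in 1 female KO library and 0 in the other 14.

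The gelatinases, which cut denatured collagen and basement membrane collagen IV, were called in different sexes, Mmp9 in females and Mmp2 in males. Mmp9, or gelatinase B (chromosome 2, 164940780 to 164955850), was at 89.8, 80.5, 93.4 and 84.96 CPM in male WT, 98.4, 90.9 and 98.2 in male KO, 31.2, 30.8, 29.9 and 32.9 in female WT, and 110.2, 111, 94.9 and 100.7 in female KO. The female WT libraries were low, below all other 11. Of the female KO libraries, the one at 94.9 CPM lay in the range of the male pools (80.5 to 98.4 CPM). Those at 110.2, 111 and 100.7 CPM lay above it. The female KO against WT difference of 3.33-fold (log2 fold change 1.73 ± 0.054, edgeR adjusted p = 2.50e-18) therefore sat beside a difference between the WT pools themselves, female WT being 2.798-fold lower than male WT (log2 fold change -1.48 ± 0.054, edgeR adjusted p = 9.19e-17). These comparisons share the female WT libraries. In males the difference was 0.13 ± 0.052 and was not called (edgeR adjusted p = 0.0738), though it was called in a fit of the 2 male groups alone (adjusted p = 0.0498) and without male WT replicate 3, male KO replicate 2 or female KO replicate 3 (adjusted p = 0.0225, 0.0409 and 0.0324). The effects of the sexes differed by 1.60 ± 0.075 on the log2 scale (edgeR adjusted p = 1.99e-13). Leukocytes are a known source of Mmp9. Their summed markers were highest for female KO (45.6 to 56.8 CPM), above those of female WT (35.1 to 41.7 CPM). Both male pools had lower sums than female WT, with 32.1 to 34.9 CPM for KO and 21.7 to 26.1 CPM for WT. Mmp9, by contrast, was higher in both male pools than in female WT. The part of leukocytes in the Mmp9 difference was not tested.

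Mmp2 (chromosome 8, 92827291 to 92853420) was at 287, 269.6, 276 and 283 CPM in male WT, 199.8, 208 and 186 in male KO, 248, 250.1, 246 and 267 in female WT, and 267, 279, 245 and 254 in female KO. It was the male KO libraries that stood apart here, below the other 12. Mmp2 fell in male KO (log2 fold change -0.49 ± 0.041, edgeR adjusted p = 7.17e-10) and was not called in females (log2 fold change 0.05 ± 0.037, edgeR adjusted p = 0.35), with a difference between these effects of 0.54 ± 0.055 (edgeR adjusted p = 6.10e-08). Lcn2, whose protein binds MMP9, was not called in either sex (0.13 ± 0.059 and 0.08 ± 0.054).

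Collagenases, stromelysins, matrilysin and macrophage elastase are encoded together. Of the 23 Mmp genes, 10 lie within 427 kb of chromosome 9 (7272514 to 7699585 on GRCm38), in the order Mmp13, Mmp12, Mmp1b, Mmp3, Mmp1a, Mmp10, Mmp8, Mmp27, Mmp20 and Mmp7. Only Mmp13, Mmp10, Mmp12 and Mmp7 of these had enough counts for the test. Promoters of this cluster are known for a shared binding site of AP-1, the Fos and Jun transcription factor, so the 70 bases before the start of the tested members are shown with that site, TGAGTCA or its reverse complement TGACTCA, in capitals (RefSeq, build GRCm38.p6, plus strand, 5′ to 3′, for Mmp12 the downstream of its 2 annotated starts).
Mmp13 (chr9:7272444-7272513): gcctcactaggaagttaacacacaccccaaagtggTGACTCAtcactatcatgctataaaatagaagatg
Mmp10 (chr9:7502272-7502341): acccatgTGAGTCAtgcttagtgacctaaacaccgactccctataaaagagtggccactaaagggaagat
Mmp7 (chr9:7692020-7692089): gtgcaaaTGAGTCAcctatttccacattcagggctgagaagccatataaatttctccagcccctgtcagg
Mmp12 (chr9:7347304-7347373): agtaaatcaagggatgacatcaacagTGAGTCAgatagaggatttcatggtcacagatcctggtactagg
The site began 35 bases before the start in Mmp13, 63 in Mmp10, 63 in Mmp7 and 44 in Mmp12. The RefSeq table held windows of 300 bases (250 before to 50 after the start) for 53 of the 84 members. TGAGTCA, searched on both strands, was in a window of 7 of the 10 cluster genes and of 3 of the 43 other members with a window. By windows this was 7 of 12 and 3 of 46, against 5.2% of all 32851 windows. Mmp7, like Mmp12, had 2 windows, and in both genes the window of the start not shown held no match. The TATA motif TATAAA, searched on both strands, was in a window of 9 of the 10 cluster genes and of 6 of the 43 others. By windows this was 9 of 12 and 6 of 46, against 13.6% of all windows. The TATA matches did not share 1 distance from the start. In the cluster the first match began 123 bases before the start in Mmp7, 58 in Mmp20, 49 in Mmp1b and 29 in Mmp10. It began 28 bases before in Mmp1a, 16 in Mmp13, 7 in Mmp3 and 3 in Mmp8, and 4 after the start in Mmp12. A match describes letters and does not show that a factor was bound.

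Of the 4 genes shown, Mmp13 was the one called for KO against WT. Mmp13, or collagenase 3, was at 1.16, 1.44, 1.25 and 1.07 CPM in male WT, 1.18, 1.66 and 1.29 in male KO, 0.912, 1.117, 1.07 and 1.43 in female WT, and 2.11, 2.795, 1.48 and 1.62 in female KO. Female KO libraries were above those of female WT, by the narrow gap between 1.43 and 1.48 CPM. Mmp13 rose 1.72-fold in female KO (log2 fold change 0.79 ± 0.22, edgeR adjusted p = 0.00402), on 18 to 36 counts per WT library and 32 to 56 per KO library, and was not called in males (log2 fold change 0.17 ± 0.25, edgeR adjusted p = 0.702). The interaction was not called (0.62 ± 0.33, edgeR adjusted p = 0.226). Mmp10, or stromelysin 2, had a KO difference of -0.14 ± 0.12 in males and -0.05 ± 0.13 in females, not called in either. It did differ between the WT pools, being 3.94 ± 0.437 CPM in the female (SD, n = 4) and 5.94 ± 0.378 CPM in the male pool (SD, n = 4; log2 fold change -0.60 ± 0.12, edgeR adjusted p = 0.000152). For Mmp12, macrophage elastase, the difference between the WT pools had the opposite sign (0.97 ± 0.20, edgeR adjusted p = 0.000258), and its KO differences of 0.38 ± 0.23 and -0.22 ± 0.18 were not called. Mmp7, or matrilysin, had 2 to 15 counts per library and was not called in either sex. Mmp11, or stromelysin 3, which lies on chromosome 10, fell in female KO (log2 fold change -0.36 ± 0.05, edgeR adjusted p = 3.85e-07). In males it was called narrowly (log2 fold change -0.15 ± 0.055, edgeR adjusted p = 0.0483), and that call was lost in 13 of 15 fits with a library left out, the exceptions being male WT replicate 3 and female KO replicate 4, with adjusted p between 0.0506 and 0.175, the latter without male KO replicate 3. It was also lost with library size as the only scaling, with no filter, with DESeq2, with limma-voom and in a fit of the 2 male groups alone (adjusted p = 0.0512, 0.0732, 0.0812, 0.0532 and 0.0747).

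Of the membrane-type MMPs, Mmp17 was the one that changed by 1.5-fold. It encodes an MMP held at the cell surface by a lipid anchor (chromosome 5, 129584169 to 129611099). Mmp17 was at 12.9, 10.9, 10.98 and 14.7 CPM in male WT, 7.504, 7.43 and 6.47 in male KO, 5.88, 5.85, 5.71 and 6.78 in female WT, and 8.102, 7.49, 7.02 and 8.14 in female KO. Male WT was above all other libraries, and female WT was below all of female KO. The gene fell 1.73-fold in male KO (log2 fold change -0.79 ± 0.10, edgeR adjusted p = 3.93e-07) and rose 1.26-fold in female KO (log2 fold change 0.33 ± 0.11, edgeR adjusted p = 0.0113). A difference of 1.13 ± 0.15 between these was called (edgeR adjusted p = 6.79e-07). Mmp14 fell slightly in male KO (log2 fold change -0.11 ± 0.032, edgeR adjusted p = 0.013), a call that was lost without male KO replicate 3 (log2 fold change -0.08, adjusted p = 0.161), and was not called in females (-0.04 ± 0.029). Mmp15 rose slightly in female KO (log2 fold change 0.14 ± 0.039, edgeR adjusted p = 0.00428). Mmp16 and Mmp24, mainly neural members at 0.943 to 2.07 CPM, were not called in either sex, and Mmp25, an MMP of neutrophils, was not tested at 8 counts in all.

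Mmp19, a secreted MMP that cuts basement membrane proteins, had the strongest decrease in male KO among called members. Its values were 2.23, 2.94, 1.94 and 2.99 CPM in male WT, 1.04, 1.46 and 0.925 in male KO, 3.95, 4.999, 4.59 and 4.005 in female WT, and 1.48, 1.95, 1.99 and 1.48 in female KO. In each sex all KO libraries lay below all WT libraries, and female WT was the highest pool. Mmp19 fell 2.18-fold in male KO (log2 fold change -1.12 ± 0.22, edgeR adjusted p = 0.000178) and 2.52-fold in female KO (log2 fold change -1.33 ± 0.17, edgeR adjusted p = 4.69e-08), while these effects were not called different (-0.21 ± 0.29, edgeR adjusted p = 0.7). The counts behind these values were at least 48 in each WT library and 20 to 43 in each KO library. Opposite-strand genes Gm47093 and Tmem198b overlap 28.3% of the exon bases of Mmp19, so reads there could not be assigned without the strand setting. Mmp23 and Mmp28 were not called in either sex.

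**Figure D4:**
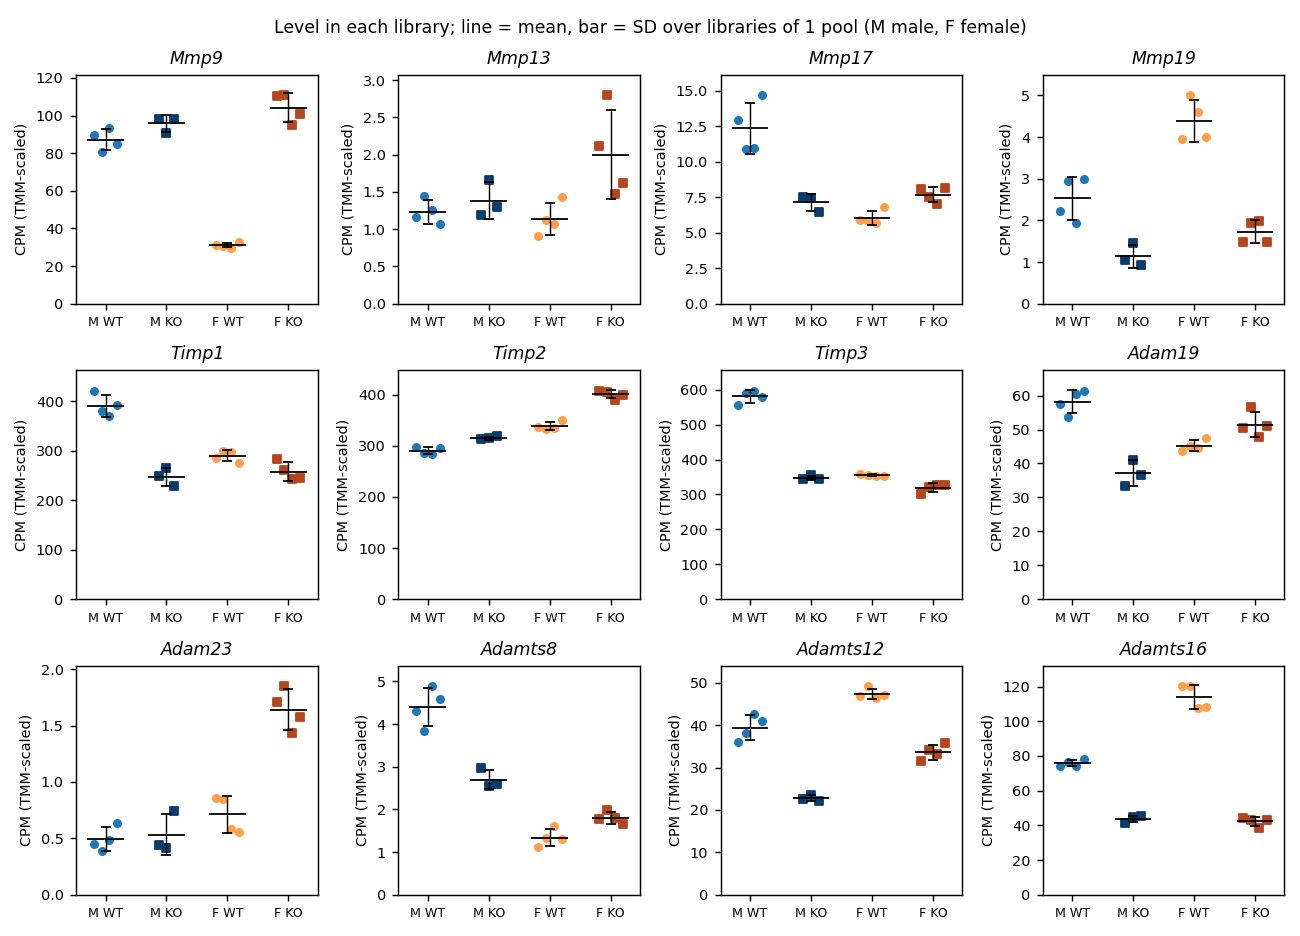
TMM-scaled CPM of 12 members in each library (points; vertical axes start at 0), by pool on the horizontal axis, with the mean as a line and the SD over libraries as a bar. Mmp9 is low in female WT only, Timp1, Timp3, Mmp17 and Adamts8 are highest in male WT, and Adamts16 and Mmp19 are lower in KO in both sexes.

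Adam10 and Adam17, which cut Notch receptors and release most ligands of the EGF receptor, had KO differences between -0.02 and 0.07 on the log2 scale and were not called in either sex. Adam9 and Adam15 were not called in either sex, at -0.09 ± 0.036 and -0.07 ± 0.05 in males and 0.05 ± 0.033 and 0.08 ± 0.046 in females. Adam10 was at 193 ± 13.2, 190.2 ± 4.67, 191 ± 4.73 and 199 ± 9.82 CPM in male WT, male KO, female WT and female KO (SD, n = 4, 3, 4 and 4). Adam8, a sheddase known from leukocytes and inflamed epithelium, was the Adam gene higher in both sexes, at 23.9, 22.04, 22.5 and 22.5 CPM in male WT, 36.98, 31.1 and 32.9 in male KO, 19.6, 20.2, 19.4 and 18.8 in female WT, and 26.3, 26.7, 30.1 and 28.6 in female KO. KO libraries were above WT libraries in each sex with no overlap. Adam8 rose 1.48-fold in male KO (log2 fold change 0.56 ± 0.06, edgeR adjusted p = 9.11e-09) and 1.44-fold in female KO (log2 fold change 0.52 ± 0.06, edgeR adjusted p = 8.03e-09). The summed leukocyte markers were also higher in KO than in WT in each sex, with S100a9 at 0 throughout and Ptprc at 0.827 to 2.20 CPM as pool means. Between the sexes the order differed. The leukocyte sum was higher in female WT (35.1 to 41.7 CPM) than in male KO (32.1 to 34.9 CPM) and male WT (21.7 to 26.1 CPM). Adam8, by contrast, was lower in female WT than in every other library. The part of leukocytes in the Adam8 difference was not tested.

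Adam19, or meltrin beta, which sheds neuregulin, was at 57.5, 53.6, 60.4 and 61.4 CPM in male WT, 33.4, 41.1 and 36.7 in male KO, 43.8, 45.3, 44.5 and 47.5 in female WT, and 50.3, 56.6, 47.7 and 50.9 in female KO. Male KO was the lowest pool. Adam19 fell 1.57-fold in male KO (log2 fold change -0.65 ± 0.061, edgeR adjusted p = 4.72e-09) and rose in female KO (log2 fold change 0.18 ± 0.056, edgeR adjusted p = 0.0111), the latter not called without female KO replicate 2 (log2 fold change 0.13, adjusted p = 0.0717). The interaction was 0.83 ± 0.083 (edgeR adjusted p = 2.85e-08). Adam12, the highest Adam gene per kilobase, fell in female KO (log2 fold change -0.28 ± 0.028, edgeR adjusted p = 6.78e-10). Its small male decrease (log2 fold change -0.10 ± 0.031, edgeR adjusted p = 0.016) was lost without male WT replicate 2 or 4 (adjusted p = 0.065 and 0.0944) and without male KO replicate 1, 2 or 3 (adjusted p = 0.0578, 0.0555 and 0.0602). Adam28 and Adam33 were not tested.

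Adam11, Adam22 and Adam23 encode members without a working catalytic site, known as neuronal receptors of LGI proteins. Adam23 was at 0.453, 0.389, 0.484 and 0.640 CPM in male WT, 0.444, 0.416 and 0.740 in male KO, 0.861, 0.851, 0.586 and 0.555 in female WT, and 1.71, 1.85, 1.43 and 1.57 in female KO. The 4 female KO libraries were above all others, on 30 to 37 counts each. Adam23 rose 2.32-fold in female KO (log2 fold change 1.21 ± 0.24, edgeR adjusted p = 9.31e-05) and was not called in males (log2 fold change 0.14 ± 0.34, edgeR adjusted p = 0.825). Adam22 went the other way in females, at 2.33, 2.44, 2.66 and 2.24 CPM in male WT, 1.53, 1.77 and 2.13 in male KO, 3.09, 3.404, 3.56 and 3.85 in female WT, and 1.65, 1.55, 2.12 and 2.07 in female KO. Female WT was above all other libraries, and Adam22 fell 1.87-fold in female KO (log2 fold change -0.90 ± 0.15, edgeR adjusted p = 1.25e-05), with -0.42 ± 0.18 in males (edgeR adjusted p = 0.0962). Neither gene's sex difference was called (interaction 1.07 ± 0.42 and -0.49 ± 0.24, edgeR adjusted p = 0.0813 and 0.18). Adam11 was not called in either sex.

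In the Adamts series, decreases outnumbered increases in both sexes. In male KO, 3 of 5 tested proteoglycanases, 1 of 3 procollagen proteinases, Adamts7, Adamts12 and 3 of 5 other members were lower. Adamts1 alone was higher, against 10.1% of all tested genes lower and 10.1% higher. In female KO, 2 proteoglycanases, Adamts12 and 3 other members were lower and 0 were higher, against 18.6% and 20.7%. Adamts16 had the largest called decrease in females. Adamts16, a protease known from developing kidney and gonad (chromosome 13, 70727802 to 70841811), was at 74.4, 76.8, 74.5 and 78.1 CPM in male WT, 41.6, 44.5 and 45.2 in male KO, 120.1, 120.1, 107 and 108 in female WT, and 43.99, 43.1, 38.7 and 43.3 in female KO. The WT pools differed from each other, yet the ranges of the KO pools overlapped. Adamts16 fell 1.73-fold in male KO (log2 fold change -0.79 ± 0.049, edgeR adjusted p = 2.09e-14) and 2.696-fold in female KO (log2 fold change -1.43 ± 0.044, edgeR adjusted p = 4.92e-23). The decrease was larger in females (interaction -0.64 ± 0.066, edgeR adjusted p = 7.94e-09), where WT started 1.501-fold higher than in males (edgeR adjusted p = 1.66e-13).

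Adamts12 and Adamts7 both cut the cartilage protein COMP. Adamts12 was at 35.9, 38.3, 42.5 and 41.1 CPM in male WT, 22.7, 23.6 and 22.1 in male KO, 46.8, 49.1, 46.5 and 47.2 in female WT, and 31.4, 34.2, 33.2 and 35.7 in female KO. All 3 male KO libraries were below every other library and all 4 female WT libraries above. Adamts12 fell 1.73-fold in male KO (log2 fold change -0.79 ± 0.059, edgeR adjusted p = 2.19e-12) and 1.41-fold in female KO (log2 fold change -0.49 ± 0.05, edgeR adjusted p = 8.37e-10), with an interaction of 0.30 ± 0.078 (edgeR adjusted p = 0.00632). Adamts7 fell in male KO (log2 fold change -0.30 ± 0.057, edgeR adjusted p = 0.00014), was not called in females (0.00 ± 0.054) and had a called difference between these (0.31 ± 0.079, edgeR adjusted p = 0.00556).

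Of the 5 tested proteoglycanases, Adamts4, Adamts8 and Adamts9 were lower in male KO, and Adamts1 was higher. Adamts8, a protease also known to restrain vessel growth, was at 4.304, 3.83, 4.88 and 4.59 CPM in male WT, 2.96, 2.55 and 2.59 in male KO, 1.11, 1.33, 1.61 and 1.31 in female WT, and 1.77, 1.997, 1.801 and 1.66 in female KO. No 2 pools overlapped, from male WT at the top through male KO and female KO to female WT at the bottom. Adamts8 fell 1.64-fold in male KO (log2 fold change -0.71 ± 0.14, edgeR adjusted p = 0.000366). In females the difference of 0.43 ± 0.18 was not called (edgeR adjusted p = 0.0587), but was without female WT replicate 3 (log2 fold change 0.52, adjusted p = 0.0347). The interaction was 1.14 ± 0.23 (edgeR adjusted p = 0.000468), and female WT was 3.28-fold below male WT (edgeR adjusted p = 4.56e-11). A gene on the opposite strand, Gm29724, overlaps 10.6% of its exon bases.

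Adamts1 and Adamts5 lie 53059 bases apart on chromosome 16 and were the proteoglycanases at the highest level. Adamts1 rose slightly in male KO (log2 fold change 0.12 ± 0.032, edgeR adjusted p = 0.00536) and was not called in females (0.01 ± 0.03). Adamts5 fell in female KO (log2 fold change -0.30 ± 0.04, edgeR adjusted p = 1.48e-06) and was not called in males (0.11 ± 0.043), and these effects differed (interaction -0.41 ± 0.058, edgeR adjusted p = 1.68e-05). Adamts4 fell in male KO by 0.42 ± 0.064 and in female KO by 0.19 ± 0.058 on the log2 scale (edgeR adjusted p = 5.99e-06 and 0.00706), the latter lost without female WT replicate 4 (adjusted p = 0.0566). Adamts9 fell in male KO (log2 fold change -0.44 ± 0.097, edgeR adjusted p = 0.000845) and was not called in females (-0.18 ± 0.094), and its interaction was not called (0.26 ± 0.14).

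Adamts2, which trims the N-terminal propeptide of procollagen I, was at 4.08, 2.94, 2.38 and 3.68 CPM in male WT, 1.88, 2.34 and 1.48 in male KO, 1.72, 2.02, 2.05 and 2.14 in female WT, and 1.598, 2.15, 1.62 and 2.34 in female KO. Male WT was the highest pool, above the other 11 libraries. Adamts2 fell 1.75-fold in male KO (log2 fold change -0.81 ± 0.20, edgeR adjusted p = 0.00251), on 32 to 45 counts per KO library, and was not called in females (-0.04 ± 0.20). Its interaction was not called (0.77 ± 0.28, edgeR adjusted p = 0.0593). The other procollagen proteinases Adamts3 and Adamts14 were not called in either sex. The procollagen genes Col1a1 and Col1a2 fell in both sexes (males -0.88 ± 0.045 and -0.95 ± 0.033, females -0.46 ± 0.041 and -0.47 ± 0.03).

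Adamts6, a relative of the fibrillin-binding Adamts10, was at 26.02, 27.8, 31.3 and 31.3 CPM in male WT, 19.99, 22.4 and 19.3 in male KO, 24.4, 22.1, 24.1 and 26.01 in female WT, and 25.96, 29.1, 26.1 and 26.6 in female KO. Male KO overlapped slightly with female WT and lay below male WT and female KO. Adamts6 fell in male KO (log2 fold change -0.50 ± 0.071, edgeR adjusted p = 1.90e-06). The female difference of 0.15 ± 0.065 was not called (edgeR adjusted p = 0.0574) but was in a fit of the 2 female groups alone (adjusted p = 0.0411) and without male WT replicate 1, male WT replicate 3 or female WT replicate 4 (adjusted p = 0.038, 0.0485 and 0.0281). The sexes' effects differed by 0.65 ± 0.096 (edgeR adjusted p = 4.87e-06). Adamts10 fell in male KO (log2 fold change -0.36 ± 0.096, edgeR adjusted p = 0.00676), a call lost without male KO replicate 3 (adjusted p = 0.094).

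Adamts18, an orphan protease, was at 0.388, 0.611, 0.525 and 0.480 CPM in male WT, 0.691, 0.312 and 0.509 in male KO, 1.27, 1.22, 1.32 and 0.991 in female WT, and 0.970, 0.599, 0.554 and 0.450 in female KO. Female WT was above all other libraries, on 23 to 27 counts each. Adamts18 fell 1.89-fold in female KO (log2 fold change -0.92 ± 0.27, edgeR adjusted p = 0.00662), and in males the estimate was 0.05 ± 0.36 (edgeR adjusted p = 0.942). Adamts17 was narrowly called lower in female KO (log2 fold change -0.49 ± 0.19, edgeR adjusted p = 0.0436). This call was lost with DESeq2 (adjusted p = 0.0781), with no filter on low counts (edgeR adjusted p = 0.0535) and without female WT replicate 1, 3 or 4 (adjusted p = 0.0542, 0.0784 and 0.121) or female KO replicate 1 or 2 (adjusted p = 0.141 and 0.125). Adamts13, Adamts15, Adamts19 and Adamts20 were not tested. Of the Adamtsl genes, Adamtsl1 was at 3.01, 1.94, 2.91 and 2.67 CPM in male WT, 1.23, 1.51 and 1.66 in male KO, 1.93, 1.86, 2.099 and 1.39 in female WT, and 1.77, 1.45, 1.11 and 1.75 in female KO. Its male KO libraries lay below all of male WT, and it fell 1.82-fold (log2 fold change -0.86 ± 0.20, edgeR adjusted p = 0.00182), with -0.25 ± 0.20 in females (edgeR adjusted p = 0.346). Adamtsl4 and Adamtsl5 were not called in either sex.

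The WT pools of the 2 sexes also differed from each other in this family. Of the 48 tested members, 13 had a higher and 16 a lower level in female WT than in male WT (12.6% and 16% of all tested genes), of which 11 differed by at least 1.5-fold (5.06%), 4 higher and 7 lower (1.73% and 3.33%). A look at which pool stood apart, added after the values were seen, counted members whose libraries in 1 pool all lay above or all below every other library. Male WT stood above for 7 members (Mmp17, Timp1, Timp3, Adamts8, Adamts9, Adamts2 and Adamts7), against 2.71% of tested genes, and below for 2 (0.877%). Male KO stood above for 2 (3.37%) and below for 5 (2.73%). Female WT stood above for 8 (6.87%) and below for Mmp9, Adam8 and Adamts8 (8.96%). Female KO stood above for 2, Timp2 and Adam23 (2.17%), and below for Timp3 (1.83%).

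Genes that control or serve these enzymes were read from lists of regulators and substrates. Of 13 tested regulators and partners of MMPs, 6 were lower in male KO (median -0.39), against 10.1% of all genes. In female KO 4 were lower and 2 higher (median -0.05), against 18.6% and 20.7% of all genes. Thbs2, a matricellular protein that promotes uptake of MMPs, fell in both (-1.49 ± 0.072 and -1.34 ± 0.065), and Pcsk5, a proprotein convertase, fell in both (-0.92 ± 0.092 and -1.65 ± 0.083). Cd44, a hyaluronan receptor that docks MMP9 at the cell surface, rose in female KO (log2 fold change 0.78 ± 0.065, edgeR adjusted p = 5.21e-07) and was not called in males (0.14 ± 0.069). Tfpi2, an inhibitor of plasmin, rose in female KO (0.47 ± 0.091) and fell in male KO (-0.73 ± 0.089). Reck, a membrane-anchored inhibitor of MMPs, fell in male KO (log2 fold change -0.40 ± 0.13, edgeR adjusted p = 0.0256), and Furin, the convertase that activates membrane-type MMPs and ADAMs, was not called in either sex.

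The plasminogen system feeds into MMP activation. Of its 10 tested genes, 4 rose and 3 fell in male KO (median -0.03), against 10.1% and 10.1% of all genes. In female KO 6 were higher and 2 lower (median 0.39), against 20.7% and 18.6%. The plasminogen receptor components S100a10 and Anxa2 rose in males (0.33 ± 0.034 and 0.27 ± 0.029) and in females (0.51 ± 0.032 and 0.59 ± 0.027). Serpinb2, an inhibitor of urokinase, rose in female KO (log2 fold change 1.17 ± 0.13, edgeR adjusted p = 5.92e-09). Serpine2 fell in both sexes (-0.42 ± 0.04 and -0.23 ± 0.037), while Plat, tissue plasminogen activator, fell in males (-0.21 ± 0.037) and rose in females (0.31 ± 0.034), and Plau, urokinase, rose in males (0.11 ± 0.027) and fell in females (-0.18 ± 0.025).

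Of 10 tested regulators of ADAM10 and ADAM17, 2 were lower in male KO and 4 higher in female KO (medians 0.00 and 0.15). Among all genes these shares were 10.1% and 20.7%. The tetraspanin gene Tspan15, whose protein directs ADAM10 to certain substrates, fell in males (log2 fold change -0.51 ± 0.08, edgeR adjusted p = 9.56e-06). Sh3pxd2a, a scaffold of invadopodia, fell in males (-0.23 ± 0.038) and rose in females (0.42 ± 0.035). Rhbdf2, a carrier of ADAM17, rose in females by 0.18 ± 0.035. Of 25 tested ADAM substrates, 6 rose and 5 fell in male KO (median 0.01), against 10.1% and 10.1% of all genes. In female KO 8 rose and 8 fell (median 0.05), against 20.7% and 18.6%. Areg and Ereg, EGF receptor ligands shed by ADAM17, rose in female KO (1.12 ± 0.16 and 0.74 ± 0.13), and Cxcl16 and Tgfa rose in male KO (0.42 ± 0.038 and 0.24 ± 0.048), Cxcl16 also in females (0.53 ± 0.036). One of the substrates that fell in both sexes was Kl, which encodes the shed membrane protein klotho (-0.72 ± 0.15 in males and -1.93 ± 0.14 in females).

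Of 18 tested matrix substrates, 13 were lower and 2 higher in male KO (median -0.56), against 10.1% and 10.1% of all genes. In female KO 7 were lower and 8 higher (median 0.02), against 18.6% and 20.7%. Eln (elastin) and Bgn (biglycan) fell in males (-1.04 ± 0.082 and -1.01 ± 0.054), and Lama3, a chain of an epithelial laminin, rose in males (0.40 ± 0.035) and in females (0.77 ± 0.033). In females Fbn2 and Col1a2 fell (-0.66 ± 0.082 and -0.47 ± 0.03), and Acan and Vwf rose (1.51 ± 0.44 and 0.81 ± 0.26) from WT levels of 0.175 and 0.847 CPM, and Vwf fell in males (-0.82 ± 0.25). Several of these substrates (Col1a1, Col1a2, Col3a1 and Dcn) are also among the fibroblast markers, and Vwf is among the endothelial ones.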

How the data were processed

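RNA was sequenced in 15 libraries, with groups by sex and Diet1 genotype taken from the titles and characteristics. Per the labels, they were made with an mRNA kit that keeps strand. The deposited table holds whole-number counts for each gene symbol. The submitters' processing notes name STAR 2.6.1, featureCounts, edgeR 3.26.8 and limma 3.40.6 and the build mm10, while neither the gene annotation nor how featureCounts treated strand is given in the sources used here. CPM as deposited by the authors equalled counts over library totals and served for that check alone.

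All tests were run on the counts with edgeR 4.0.16 under R 4.3.3. Low genes were removed with filterByExpr (count 10, total 15), libraries were scaled by TMM, and a robust quasi-likelihood model was fitted to the 4 groups together. It gave the KO effect within males, within females, their difference, and female against male WT, with Benjamini-Hochberg adjustment over all 13912 genes. A standard error is the log2 estimate divided by the root of F. Counts summed per pool went into a second model. At 17648416 to 30896637 counts per library, 3 counts equal 0.0971 to 0.170 CPM. Alternatives were DESeq2 size factors, upper quartile and library size scaling, no filter or 5 CPM in 3 libraries, the DESeq2 1.42.0 Wald test, limma-voom (limma 3.58.1), a fit of 2 groups, a replicate block, and the omission of single libraries. The edgeR fit was also run on simulated counts. These had the same spread for every gene and, apart from genes changed on purpose, no difference between pools. They therefore cannot give the error rate in the real libraries.

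Members were described in full when called with at least 1.5-fold in a sex, when their sex difference was called at 0.58 or more on the log2 scale, or as Timp genes, besides the 10 highest per kilobase. From other lists up to 2 called genes in each direction were named, apart from a few that are not reported here. Outside this rule, and picked with their values in view, are Reck, Furin, Lcn2, Col1a1 and the full description of Adam8. The members and lists were chosen with earlier results of these data known. Positions and exon lengths are from GENCODE M21, which held all 84 members, and promoters from RefSeq on GRCm38.p6.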

Additional observations from a re-analysis of the deposited data

Results flagged for a closer look

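In 73 groups of 4 libraries (25 members described by level), 5 had a library apart from the other 3 by Dixon's criterion, where chance gives about 1 in 20. Of these, 4 were in female WT: Mmp2 at 267 CPM in replicate 4 against 246 to 250.1 in the others, Mmp14 at 459 in replicate 3 against 475 to 478, Mmp17 at 6.78 in replicate 4 against 5.71 to 5.88, and Timp3 at 359.9 in replicate 1 against 354 to 355. The fifth was Timp4 in female KO, at 0.0998 CPM (2 counts) in replicate 2 and listed at 0 in the others.

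The KO effect differed between the sexes in edgeR's interaction test for 14 members. The female minus male difference in log2 fold change was 1.60 for Mmp9, 1.14 for Adamts8, 1.13 for Mmp17, 0.83 for Adam19, 0.65 for Adamts6, 0.59 for Timp3, 0.54 for Mmp2, 0.49 for Timp1, 0.31 for Adamts7, 0.30 for Adamts12 and 0.13 for Timp2. It was -0.64 for Adamts16, -0.41 for Adamts5 and -0.18 for Adam12. Each sex and genotype is 1 pool, so a difference between sexes and a difference between pools cannot be told apart.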

How the results depend on the processing

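Under 3 other scalings, 2 other filters, DESeq2, limma-voom, fits of 2 groups, a replicate block and 15 fits with a library left out, 281 of 291 counts of calls stayed within 1.5 times. Other scalings moved the median of all genes by 0.0390 (log2) or less. Members with a more negative KO effect in females numbered 3, against 5 with library size only and 5 with the replicate block. Members higher in female WT numbered 13, against 8 when 5 CPM in 3 libraries was required, where 20 of the 29 members called between the WT pools were still tested. Leaving out 1 library gave 3 to 5 members higher and 16 to 20 lower in male KO (5 higher without male WT replicate 3 or female KO replicate 3), 7 to 9 and 10 to 12 in female KO, 10 to 16 and 3 to 5 for the interaction (5 lower without female KO replicate 3), and 11 to 15 and 15 to 17 between WT pools. Over the 4 pools, 1 gene was called, against 0 with DESeq2 size factors, 2 with upper quartile scaling and 444 with library size only, among them 4 members where TMM gave 0. Signs reversed for estimates near 0 that were not called. Adamts18 in males was -0.0052 with the replicate block and -0.23 to 0.29 with a library left out, below 0 without male WT replicate 1 or male KO replicate 1. With a library left out, Adam23 in males was -0.18 to 0.29, below 0 without male KO replicate 3, and Adamts2 in females was -0.16 to 0.039, above 0 without female WT replicate 4 or female KO replicate 1 or 3. The cause was not tested. Replicate numbers were not taken as pairs in the main fit. Deviations of same-numbered libraries of different groups correlated at -0.0289 to 0.238, and of other-numbered ones at -0.152 to 0.107. The correlation was above 0.1 in 2 of 21 same-numbered pairs and in 1 of 63 other-numbered pairs. Of 15 libraries, 8 were closest to their own number in another group, and the number given by chance was not worked out. Whether same-numbered libraries shared an effect was not tested. The replicate block kept all 22 male and 20 female calls and added 1 in each, in females Adamts6 (edgeR adjusted p = 0.0368). It also kept all 14 interaction calls and added 4, and kept all 29 calls between WT pools and added 3. Members with few counts, such as Mmp7, limit what depth can show.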
